A study of Mus musculus with 3 samples.

Results

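The genes described here are the 8 granzymes Gzma, Gzmb, Gzmc, Gzmd, Gzme, Gzmf, Gzmg and Gzmk and the perforin gene Prf1. They were taken by symbol, and all 9 were found among the 31053 genes of the tables. They were chosen by their levels in NK-like, T-like and stromal cells of these libraries, with earlier results known, so those levels are given as a description and no test is made of them. Granzymes are serine proteases that natural killer (NK) cells and cytotoxic T cells store in granules, and perforin opens pores in the membrane of a target cell through which granzymes enter. Granzyme B cleaves after aspartate and can activate caspases, whereas granzymes A and K cleave after basic residues. Granzymes C to G are encoded next to granzyme B in the mouse and are less studied, and some of them have been found in activated lymphocytes and in granulated cells of the pregnant uterus.

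The cells came from the calvaria (skull roof) of C57BL/6 mice aged 8 weeks, with 1 library per group. The control library came from tumour-free bone. HNM007, a mouse squamous carcinoma line, was implanted on intact bone for the scratch-negative library, described as pre-invasive, and on bone whose periosteum had been scraped off with a needle for the scratch-positive library, described as invasive. Tissue was collected 1 week after implantation, the tumour was cut away, and live CD45+ and CD45- cells were mixed in equal parts, so numbers of immune against other cells carry no information. No scratched bone without tumour was analysed here, so scratch, loss of periosteum and invasion cannot be told apart. With 1 library per group there is no estimate of the spread between mice, and no p-value is given.

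After filtering, 6128 control, 7571 scratch-negative and 8380 scratch-positive cells remained, with medians of 8829, 11245 and 35956.5 unique molecular identifiers (UMIs, counts of captured mRNA molecules) per cell. Clusters made without the granzymes or Prf1 were named from markers, as "NK-like" and so on. NK-like cells numbered 170, 134 and 92 in control, scratch-negative and scratch-positive, T-like cells 105, 72 and 18, and fibroblast-like cells 52, 546 and 423. All 12 NK markers had UMIs in NK-like cells of each library, and the T cell genes Cd3e and Cd8a were at 0 there. Of all 12 T cell markers 6, 5 and 6 were at 0, and the list summed to 772, 812 and 882 CPM. Levels are UMIs summed over a class in 1 library, as counts per 1000000 UMIs of that sum (CPM), which 3′ counting makes independent of transcript length. Intervals are exact 95% intervals and cover counting error only. A gene is called higher or lower between 2 libraries when its ratio is at least 1.5-fold, the whole interval lies on that side and the 2 libraries hold at least 10 UMIs together.

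On GRCm38 the members lie at 3 places. Prf1 (ENSMUSG00000037202) is at chr10:61297833-61304680 on the plus strand. Gzma (ENSMUSG00000023132, chr13:113093825-113100981) and Gzmk (ENSMUSG00000042385, chr13:113171608-113225908) are neighbours on the minus strand. The other 6 lie on the minus strand of chromosome 14 in the order Gzme (ENSMUSG00000022156, chr14:56117626-56120625), Gzmd (ENSMUSG00000059256, chr14:56129556-56132608), Gzmg (ENSMUSG00000040284, chr14:56156582-56159579), Gzmf (ENSMUSG00000015441, chr14:56205263-56211417), Gzmc (ENSMUSG00000079186, chr14:56231441-56234656) and Gzmb (ENSMUSG00000015437, chr14:56258838-56262260). Gzmn (ENSMUSG00000015443), a further granzyme that is no member, lies between Gzmg and Gzmf. Each of the 6 has 5 exons. Transcripts of Gzmd and Gzme were 94.8% identical over their aligned length, Gzmd and Gzmg 90.1%, Gzmd and Gzmf 86.9%, Gzmb and Gzmc 76.7%, and Gzma and Gzmk 61.6%. Of 411 windows of 90 bases in the last 500 bases of each transcript, 7 (1.70%) were shared between Gzmd and Gzme and none between other members. Reads from those shared windows cannot be told apart by sequence between Gzmd and Gzme, and their separate values are uncertain to that extent.

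The promoters of the chromosome 14 members group only in part as their transcripts do. The Gzmc transcript was 76.7% identical to that of Gzmb, and 74.2% to 75.7% identical to those of Gzmd, Gzme, Gzmf and Gzmg. By promoter Gzmc was closer to these than to Gzmb, as given below. The 250 bases before the RefSeq start (GRCm38.p6) are printed for Gzmb, Gzmc, Gzmd and Gzme, 5′ to 3′ on the gene's strand. They lie on the minus strand at chr14:56262335-56262584 (Gzmb), chr14:56234658-56234907 (Gzmc), chr14:56132594-56132843 (Gzmd) and chr14:56120626-56120875 (Gzme). Gzmb is described below in NK-like and T-like cells, though Gzma was above it in NK-like cells. Gzmc, Gzmd and Gzme were the abundant members in scratch-positive fibroblast-like cells, where Gzmf and Gzmg were far lower. Capitals mark TGTGGT or its reverse complement ACCACA, the core letters bound by RUNX factors.
Gzmb: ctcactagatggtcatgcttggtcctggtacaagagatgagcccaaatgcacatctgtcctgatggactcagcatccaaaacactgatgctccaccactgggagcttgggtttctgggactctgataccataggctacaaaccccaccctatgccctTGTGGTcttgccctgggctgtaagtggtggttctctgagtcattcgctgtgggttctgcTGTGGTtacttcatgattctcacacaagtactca
Gzmc: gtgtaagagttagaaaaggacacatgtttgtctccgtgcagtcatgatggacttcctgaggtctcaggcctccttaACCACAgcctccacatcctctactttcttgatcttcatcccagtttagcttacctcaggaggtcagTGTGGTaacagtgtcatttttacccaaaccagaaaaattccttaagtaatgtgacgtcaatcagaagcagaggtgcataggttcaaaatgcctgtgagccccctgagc
Gzmd: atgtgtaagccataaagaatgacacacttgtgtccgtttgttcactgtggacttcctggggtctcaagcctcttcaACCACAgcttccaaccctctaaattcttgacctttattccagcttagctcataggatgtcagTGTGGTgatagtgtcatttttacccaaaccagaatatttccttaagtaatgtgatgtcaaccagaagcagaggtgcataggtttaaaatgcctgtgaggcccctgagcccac
Gzme: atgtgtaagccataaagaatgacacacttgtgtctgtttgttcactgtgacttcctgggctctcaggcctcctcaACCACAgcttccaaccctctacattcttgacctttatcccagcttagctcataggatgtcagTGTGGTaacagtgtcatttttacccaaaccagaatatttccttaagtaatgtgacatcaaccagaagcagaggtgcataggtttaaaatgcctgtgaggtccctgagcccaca
The promoters of Gzmc, Gzmd, Gzme, Gzmf and Gzmg were 84.4% to 95.6% identical to each other, with Gzmd and Gzme the closest pair. Gzmb was 50.0% to 59.5% identical to these 5. TGTGGT, searched on both strands, was found in 8 of the 9 members' promoters and in 14% of 32851 RefSeq promoters of the same length. Its 2 matches began 174 and 108 bases before the start in Gzmc, 174 and 112 in Gzmd, and 175 and 113 in Gzme. In Gzmb they began at 93 and 34 bases. Gzmk held none. TGANTCA, an AP-1 site that shares no base with those matches, was found in Gzmb at 58 bases and in 6.75% of all promoters. A match describes the letters only. The Gzmb window begins at chr14:56262335, well upstream of the gene end at chr14:56262260 given above. Those of Gzmc and Gzme begin next to their gene ends. Positions in Gzmb, and its identity to the other promoters, were therefore counted from an unlike start, and windows on matched starts were not compared.

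Different patterns of expression appeared, in NK-like cells, in T-like cells and in fibroblast-like cells, as the map of levels by class shows. Gzma and Prf1 were highest in NK-like cells of every library, and these cells held 87.5%, 69.2% and 39.3% of the Gzmb UMIs of control, scratch-negative and scratch-positive. T-like cells carried Gzmb in the tumour-bearing libraries with little Gzma or Prf1. Fibroblast-like cells of scratch-positive carried Gzmc, Gzmd and Gzme with no Prf1 at all.

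**Figure D1:**
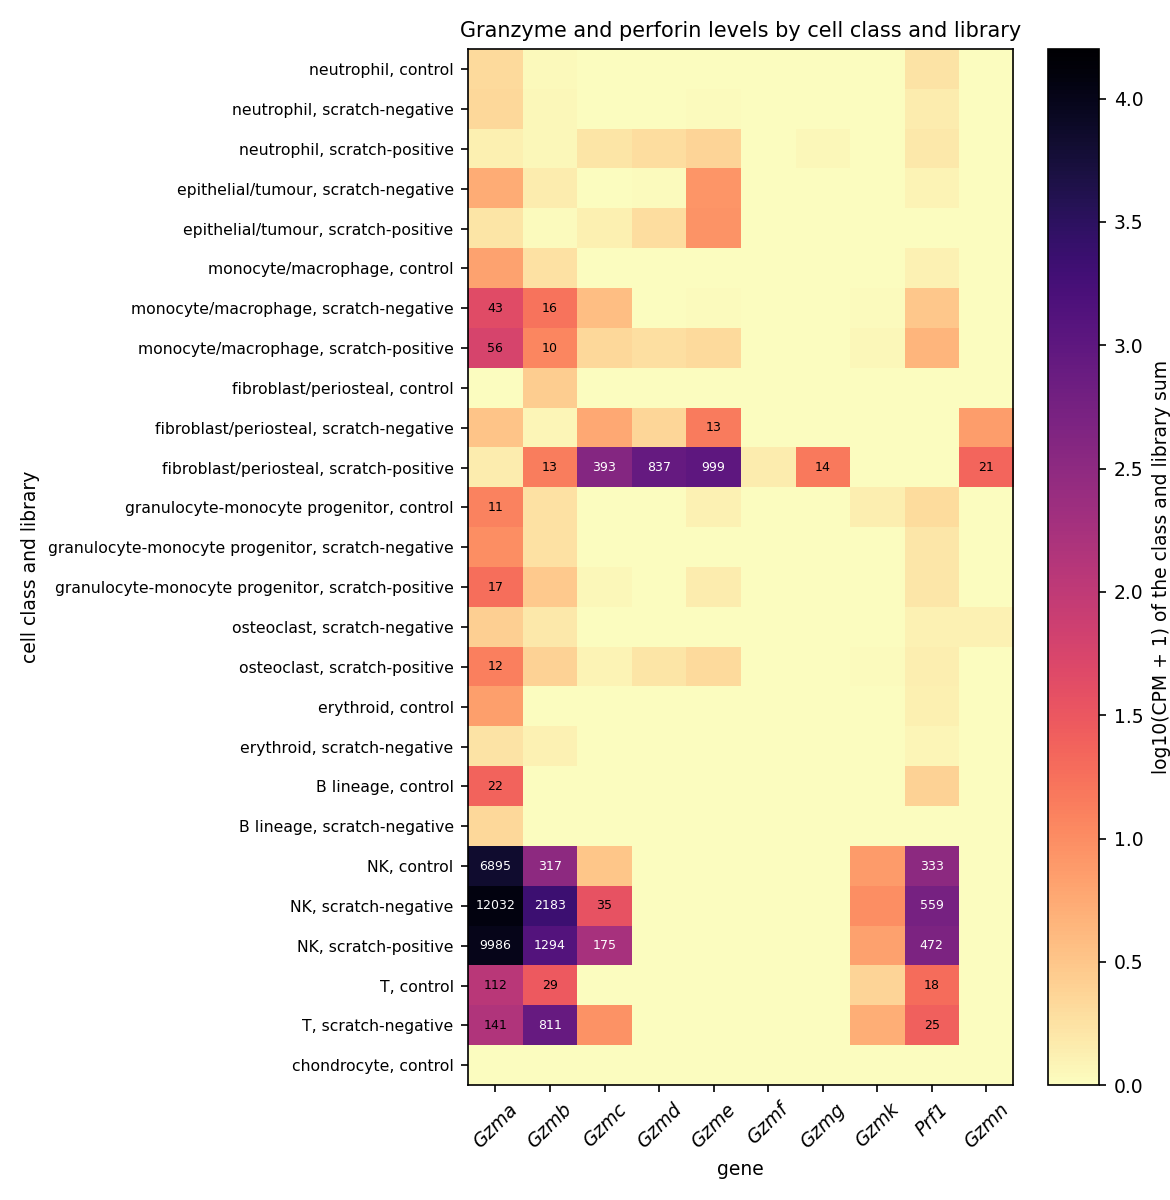
Colour gives log10(CPM + 1) of each gene (columns) in each cell class and library with at least 40 cells (rows), and numbers give CPM of 10 or more. Gzma and Prf1 were highest in the 3 NK rows. Gzmb was highest in the NK rows of scratch-negative (2183 CPM) and scratch-positive (1294), above the scratch-negative T row (811) and the control NK row (317), and Gzmc, Gzmd and Gzme in the scratch-positive fibroblast/periosteal row, at 393, 837 and 999 CPM.

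Gzma was the most abundant member in NK-like cells. NK-like cells held 6425 UMIs (6895 CPM) of Gzma in control, 8285 UMIs (12032 CPM) in scratch-negative and 3487 UMIs (9986 CPM) in scratch-positive. The ratio of scratch-negative to control was 1.75 (95% interval 1.69 to 1.80), and that of scratch-positive to control, 1.45 (1.39 to 1.51), was below the fold rule. The median NK-like cell held 30 Gzma UMIs in control, 55.5 in scratch-negative and 32 in scratch-positive. Nearly every NK-like cell expressed it: with each cell thinned to 3000 UMIs, 97.3%, 99.2% and 93.9% had a Gzma UMI, against 0.317%, 0.412% and 0.214% of neutrophil-like cells, which should lack it. Thinning kept 147, 120 and 49 NK-like cells and left out 23, 14 and 43 shallower ones.

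Prf1, perforin, was lower than Gzma by more than an order of magnitude and followed it across libraries. Its NK-like levels were 310 UMIs (333 CPM) in control, 385 (559 CPM) in scratch-negative and 165 (473 CPM) in scratch-positive. The ratio to control was 1.68 (1.44 to 1.96) in scratch-negative and 1.42 (1.17 to 1.72) in scratch-positive, and only the former passed the rule. Thinned shares of NK-like cells with a Prf1 UMI were 55.1%, 75% and 63.3%. Without doublet removal the ratios of scratch-negative to control fell under the fold rule for both genes, at 1.45 for Gzma and 1.34 for Prf1.

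Gzmb separated control from the tumour-bearing libraries more than any other member with over 100 UMIs in NK-like cells. It was at 295 UMIs (317 CPM) in control, 1503 (2183 CPM) in scratch-negative and 452 (1294 CPM) in scratch-positive. Relative to control the ratio was 6.90 (6.08 to 7.84) in scratch-negative and 4.09 (3.52 to 4.75) in scratch-positive. Scratch-positive was 1.69-fold lower than scratch-negative (1.52 to 1.88). Without doublet removal this last difference was 0.766 of scratch-negative and was not called. The share of NK-like cells with a Gzmb UMI at 3000 UMIs per cell was 34.7% in control, 78.3% in scratch-negative and 69.4% in scratch-positive, and unthinned it was 46.5%, 86.6% and 71.7%. The largest count in 1 cell was 31, 121 and 47. Every NK-like cell with Gzmb also had Gzma, and 81.0%, 88.8% and 77.3% of them had Prf1. Granzyme B therefore differed by a larger factor between libraries than granzyme A or perforin in these cells.

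Gzmc was rare and sat in few NK-like cells. It was at 2 UMIs (2.15 CPM) in control, 24 (34.9 CPM) in scratch-negative and 61 (175 CPM) in scratch-positive, in 2, 6 and 6 cells. A single cell held 18 of the 24 in scratch-negative and another held 26 of the 61 in scratch-positive. The ratio to control was 16.2 (4.03 to 142) and 81.4 (21.6 to 687), and scratch-positive was 5.01-fold (3.08 to 8.41) above scratch-negative. Gzmk had 6, 6 and 2 UMIs in NK-like cells. Gzmd, Gzme, Gzmf and Gzmg had 0 UMIs in NK-like cells of all 3 libraries, which, at a limit of 3 counts of the total, allows shares of cells with a UMI of up to 1.76%, 2.24% and 3.26%.

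Of the 9 members 5 reached 10 UMIs in scratch-negative against control in NK-like cells, and 4 were called higher (Gzma, Gzmb, Gzmc, Prf1), where 3.7% of 8009 genes tested were higher and 3.91% lower. The members' median log2 ratio was 0.80 and that of all genes -0.01. In scratch-positive against control 4 reached 10 UMIs and 2 were higher (Gzmb, Gzmc), with 7.23% of 7524 genes higher and 4.65% lower, and medians of 1.28 and 0.06. In scratch-positive against scratch-negative 1 of 4 was higher (Gzmc) and 1 lower (Gzmb), with 5.33% and 3.37% of 6922 genes. Gzmc reached the minimum only through the libraries where it was high. Trimmed-mean scaling changed every log2 ratio of scratch-positive by -0.12 against control and by -0.13 against scratch-negative.

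**Figure D2:**
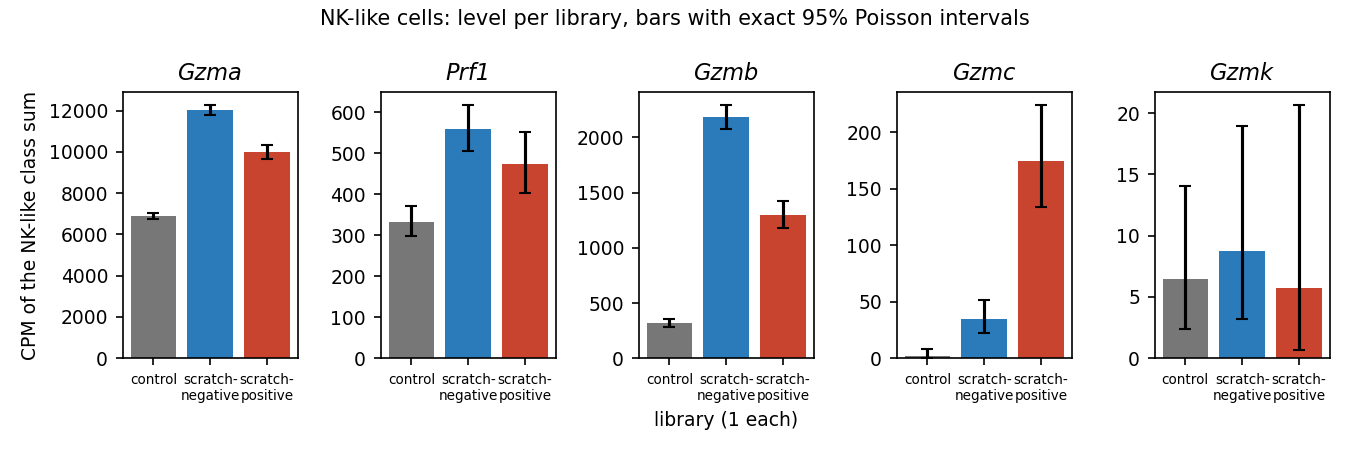
Bars give CPM of 5 members in the NK-like sum of each library (1 library per group; each panel has its own scale from 0), and lines give exact 95% Poisson intervals. Gzmb was 317, 2183 and 1294 CPM, and the intervals of the 3 libraries do not overlap; those of Gzmk overlap.

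NK-like and T-like cells were clustered again without the members to see which cells carried the granzymes. Subcluster 0 (Ncr1, S1pr5, Ifng and Ccl3 high) and subcluster 2 (Cma1 and Camk2n1 high) held most control NK-like cells. In subcluster 0 Gzmb was at 282 CPM in 52 control cells and 786 CPM in 24 scratch-negative cells, and its 6 scratch-positive cells had 2645 CPM (1906 to 3575). That last level rested on 42 UMIs, of which 1 cell held 22, and 1 of the 6 cells was T-like. In subcluster 2 Gzmb was at 311 CPM in 99 control cells and 888 CPM in 53 scratch-negative cells. Within both, scratch-negative was above control with intervals that did not overlap.

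Subcluster 6 was led by interferon-response genes (Ifi204, Cxcl10, Mx1, Isg15) and held 4 control, 38 scratch-negative and 6 scratch-positive cells. Its scratch-negative cells held 978 of the 1503 Gzmb UMIs of the NK-like class in that library, at 5616 CPM, with Gzma at 17192 CPM. The granzyme B inhibitor Serpinb9 was at 1321 CPM there, against 265 and 558 CPM in subclusters 0 and 2 of the same library. In its 6 scratch-positive cells Gzmb was at 1542 CPM. Without this subcluster the NK-like ratio of scratch-negative to control was 3.45 for Gzmb, and scratch-positive was 1.26 times scratch-negative, the opposite order. The count of members called higher in scratch-negative against control was then 2.

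Subcluster 7 held 74 of the scratch-positive, 13 of the scratch-negative and 3 of the control cells. It was led by Krt7, Wfdc2, Ctsk and Spp1, genes of epithelium and bone-resorbing cells. Among scratch-positive cells Krt7 was at 123 CPM in it and at 31.4 to 127 CPM in the other subclusters measured. Spp1 was at 234 CPM in it and at 157 to 252 CPM in the others. In its scratch-negative cells Krt7 and Spp1 were at 0 and 308 CPM. Only 1 NK marker passed the naming rule, so it stays unnamed. Here the rule set subclusters only against each other, mostly NK-like cells, so NK cells could fail it. Ncr1 was detected in 45.6% and Cd3e in 1.11% of subcluster 7 cells. Gzmb was at 1361 CPM in its scratch-negative and 1231 CPM in its scratch-positive cells. Gzmc had 51 UMIs in its scratch-positive cells, in 4 cells. In the whole NK-like class the 12 epithelial markers summed to 9.66 CPM in control, 20.3 in scratch-negative and 200 in scratch-positive, and the 12 NK markers to 8236, 8568 and 6581 CPM. The median NK-like cell of scratch-positive held 3048.5 UMIs, well below that library's median. Subcluster 2 thus held more NK-like cells than any other in control (99) and in scratch-negative (53), and subcluster 7 did so in scratch-positive. Subcluster 6 held 4 cells of control and 38 of scratch-negative. The part of these differences between libraries in the ratios was not tested.

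**Figure D3:**
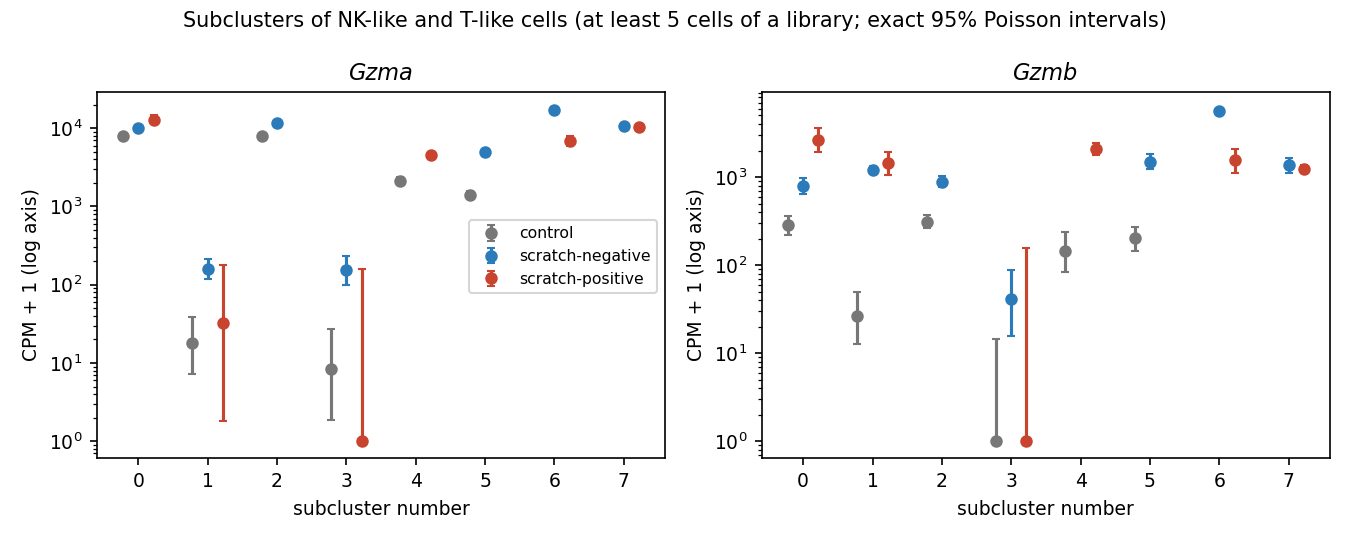
Points give CPM + 1 (log axis) of Gzma and Gzmb in subclusters of NK-like and T-like cells with at least 5 cells in a library, with exact 95% Poisson intervals; colours are libraries. Subclusters 1 and 3 were T-like, and Gzmb was highest in subcluster 6 of scratch-negative, at 5616 CPM.

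Genes that work with granzymes in NK-like cells differed less than Gzmb. Among 16 granule maturation and exocytosis genes in scratch-negative against control, 3 were higher and 2 lower (median log2 -0.08). Of all genes tested 3.7% were higher and 3.91% lower in that comparison, and 7.23% and 4.65% in scratch-positive against control, beside which the counts of this and the next lists stand. Stx11, a syntaxin needed for granule release, was 2.44-fold higher (1.53 to 3.94; 30 and 54 UMIs). Serpinb9, which protects cells from granzyme B, was 1.76-fold higher (1.53 to 2.03; 344 and 448 UMIs). Without subcluster 6, 218 of the 448 were left, and the ratio was 1.15 (0.964 to 1.37) and not called. Unc13d, a granule priming factor, was at 0.464 of control (0.219 to 0.915). Ctsh, a cathepsin, was at 0.301 of control (0.0740 to 0.913; 18 and 4 UMIs). Ctsc, the protease that activates progranzymes, had 61, 43 and 26 UMIs in the 3 libraries with ratios to control of 0.954 (0.630 to 1.43) and 1.14 (0.690 to 1.83), and was not called. Srgn, the granule proteoglycan serglycin, had ratios of 1.32 (1.21 to 1.44) and 1.44 (1.30 to 1.59) and was not called.

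Granzyme inhibitors followed. In scratch-negative 2 of 5 measured were higher (Serpinb9, as given, and Serpina3g, at 1.56-fold) where 3.7% of all genes were, and in scratch-positive 4 of 5 where 7.23% were, with Serpinb6a at 2.82-fold (1.40 to 5.69) and Serpinb9 at 1.78-fold (1.5 to 2.11). None was lower in either. Their median log2 ratio was 0.54 and 0.82, and that of all genes -0.01 and 0.06.

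Ligands and cytokines are the other effector route. In scratch-negative 0 of 7 were higher or lower, and in scratch-positive 4 of 7 were lower than in control, where 4.65% of all genes were, with a median log2 ratio of -0.68 against 0.06 for all genes. Ifng, interferon gamma, had 81, 81 and 9 UMIs, a ratio to control of 1.35 (0.982 to 1.86) in scratch-negative and 0.297 (0.131 to 0.591) in scratch-positive. Ccl3, a chemokine, was at 0.148 of control in scratch-positive (0.0584 to 0.315). Fasl, the Fas ligand, was not called in either, at 1.28 (1.02 to 1.60) and 1.24 (0.927 to 1.63).

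Activation receptors and cytotoxic transcription factors changed in few members. In scratch-negative 2 of 12 activating receptors were higher, Tnfrsf9 (4-1BB, a costimulatory receptor) by 2.43-fold (1.80 to 3.31) and Cd247 by 1.70-fold, and Cd226 was lower at 0.467. Tnfrsf9 was 3.75-fold (2.73 to 5.18) and Icos 4.34-fold (2.24 to 8.65) above control in scratch-positive, where Hcst and Ncr1 were lower at 0.513 and 0.590. Of 14 transcription factors 2 were higher and 1 lower in scratch-negative, with Batf at 2.19-fold and Tcf7, a factor of naive and memory cells, at 0.548. Tbx21 (T-bet) and Eomes were not called, at 1.26 (0.845 to 1.87) and 1.00 (0.832 to 1.21). Among receptors for interleukins, Il12rb2 alone of 8 was called higher, at 1.56-fold. Tigit was the 1 of 7 inhibitory receptors called, from 2 UMIs in control and 11 in scratch-negative.

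In T-like cells Gzmb was the member with most UMIs in the tumour-bearing libraries. Gzmb had 22 UMIs (28.5 CPM) in control, 396 (811 CPM) in scratch-negative and 198 (1633 CPM) in scratch-positive, in 7, 26 and 9 cells. The ratio of scratch-negative to control was 28.4 (18.5 to 45.9), and 13.1 without the cell that alone held 218 UMIs. Over other ways of filtering and summing the cells it ran from 15.5, with cells thinned to equal depth, to 105, with at least 1000 genes per cell. At 3000 UMIs per cell 4.04% of control, 30.3% of scratch-negative and 43.8% of scratch-positive T-like cells had a Gzmb UMI, the last from 16 cells. With 18 cells in scratch-positive no ratio is given for that library. T-like cells also held UMIs of NK markers, with 2 of the 12 at 0 in each library. These summed to 1997, 2640 and 1831 CPM in control, scratch-negative and scratch-positive. The 12 T cell markers summed to 4965, 6039 and 4825 CPM there. The part of NK cells or their RNA in the T-like values was not tested. Of the 3 members with 10 UMIs, 1 was called higher (5.86% of 7360 genes were higher and 3.15% lower; medians 0.42 and 0.07), and 2 under most other settings.

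The other members were sparse in T-like cells. Gzma had 86, 69 and 7 UMIs, of which 1 control cell held 78. The Gzma ratio of scratch-negative to control was 1.27 with that cell and 13.4 without it, and up to 14.4 over other settings, and the count of members higher was 2 without it. Prf1 had 14, 12 and 1 UMIs, Gzmk 1, 2 and 6, and Gzmc 0, 4 and 12. By subcluster, Gzmb was at 25.7, 1200 and 1446 CPM in subcluster 1 (Icos, Cxcr6 and Ikzf2 high; 53, 44 and 6 cells), and at 0, 40.3 and 0 CPM in subcluster 3 (Cd8a, Cd8b1 and Nsg2 high; 44, 24 and 6 cells). In subcluster 1 a single cell held 218 of the 349 Gzmb UMIs of scratch-negative and another 43 of the 46 of scratch-positive. The 46 were a minor part of the 198 in scratch-positive T-like cells. Subcluster 3 had none, so the rest lay in T-like cells of subclusters 0, 4, 5, 6 and 7 (1, 2, 1, 1 and 1 cells). Those subclusters were mostly of NK-like cells, cycling cells or cells with neutrophil genes. The Gzmb level of scratch-positive T-like cells thus rested mostly on few cells outside subclusters 1 and 3. Beside Gzmb, scratch-negative T-like cells had more Tnfrsf9 (7.83-fold, 5.15 to 12.3), Ctla4 (5.22-fold), Il2ra (4.64-fold), Ccl4 (4.08-fold) and Ifng (3.16-fold), and less Eomes (0.234 of control). Of 12 activating receptors 4 were higher, and of 13 transcription factors 1 was higher and 3 lower, beside 5.86% and 3.15% of all genes. Gzmm, granzyme M, had 4 and 10 UMIs (3.95-fold, 1.14 to 17.2).

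In fibroblast-like cells of scratch-positive Gzme, Gzmd and Gzmc were the abundant members. Gzme had 0 UMIs in control, 225 (13.3 CPM) in scratch-negative and 12275 (999 CPM) in scratch-positive. Gzmd had 0, 21 (1.24 CPM) and 10294 (837 CPM). Gzmc had 0, 81 (4.79 CPM) and 4826 (393 CPM). Between the tumour-bearing libraries scratch-positive exceeded scratch-negative by 75-fold for Gzme (65.8 to 86.0), 674-fold for Gzmd (441 to 1090) and 81.9-fold for Gzmc (65.8 to 103). Over other ways of filtering and summing the cells the folds ran from 65.0 to 86.1, from 379 to 681 and from 63.0 to 203.

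The remaining members were low or absent there. Gzmb had 1, 3 and 160 UMIs (13 CPM in scratch-positive), a 73.3-fold difference between the tumour-bearing libraries (24.7 to 359) that ran from 10.3-fold, without doublet removal, to 114-fold over other settings. Gzmg had 0, 0 and 172 UMIs, at least 78.8-fold higher against a floor of 3 UMIs in scratch-negative. Gzmf had 0, 0 and 5 UMIs. Gzma had 0, 39 and 5 UMIs. It reached the minimum only through scratch-negative, and scratch-positive was at 0.176 of it, at 0.360 without the scratch-negative cell of most Gzma UMIs, and at 0.0897 to 0.660 over other settings. NK markers moved with it, at 12.4 CPM in scratch-negative and 2.93 in scratch-positive, and their part was not tested. Gzmk and Prf1 had 0 UMIs in fibroblast-like cells of all 3 libraries, which in 423 scratch-positive cells allows a share with a UMI of either of up to 0.709% (3 counts of the total). In all 6 members reached 10 UMIs, 5 were higher and 1 lower, where 11.3% of 14018 genes were higher and 16.2% lower, and the medians of log2 ratios were 6.29 and 0.01. Gzmg and Gzmb reached the minimum only through scratch-positive. Against control, where a gene at 0 UMIs could have been at up to 5.09 CPM, 1 of 4 members was higher in scratch-negative (Gzme; 8.09% of 13365 genes higher, 17.7% lower) and 5 of 5 in scratch-positive (12.8% of 12651 higher, 21% lower). Control held at most 1 UMI of any member, so members reached the minimum only through the tumour-bearing library, and nothing is read from these counts. Trimmed-mean scaling raised log2 ratios to control by 0.34 in scratch-negative and 0.35 in scratch-positive.

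The granzymes were found together in the same scratch-positive fibroblast-like cells. Unthinned, 56.3% had a Gzmc, 45.9% a Gzmd and 55.1% a Gzme UMI, and at 3000 UMIs per cell 30.1%, 32.3% and 38.5% of 418 cells, against 0.556%, 0.185% and 2.78% of 540 in scratch-negative. Of the 194 cells with Gzmd, 95.9% also had Gzme and 92.3% Gzmc, whereas 20.5% and 25.8% of the 229 cells without Gzmd had them. Of the 49 cells with Gzmb, 93.9% had Gzmc, 91.8% Gzme and 0 Gzma or Prf1. Gzmg was seen in 18 cells, all of which had Gzmc and Gzme.

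Within the class these granzymes were concentrated in cluster 28 (Crabp1, Tagln, Lox, Lrrc15), which held 348 scratch-negative and 308 scratch-positive cells and none of control. Its scratch-positive cells had 470 CPM of Gzmc, 1007 of Gzmd and 1197 of Gzme, and its scratch-negative cells 4.5, 1.45 and 16.3. Cluster 20 (Clec3b, Mgp; 52, 198 and 115 cells) had 12.5, 2.41 and 22.2 CPM in scratch-positive. The comparison with control therefore set cluster 20 cells against a class mostly of cluster 28. Counts were skewed within cluster 28 of scratch-positive: the median cell had 4 Gzmc, 3 Gzmd and 9.5 Gzme UMIs, the highest 219, 442 and 420, and the tenth of cells with most held 54.6%, 58.9% and 55.3% of the UMIs.

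A finer clustering (Leiden resolution 2.0) split cluster 28 into fine clusters 35 and 36, shown with Acta2 (smooth muscle actin) and Timp1, a metalloproteinase inhibitor. Fine cluster 35 held 266 scratch-positive and 27 scratch-negative cells. Its scratch-positive cells had 544 CPM of Gzmc, 1168 of Gzmd, 1387 of Gzme and 6636 of Acta2, with Timp1 at 1853. Its 27 scratch-negative cells had 4.06, 1.63 and 17.9 CPM of the granzymes, 2281 of Acta2 and 4238 of Timp1. Fine cluster 36 held 321 scratch-negative and 42 scratch-positive cells. In its scratch-positive cells Gzmc, Gzmd and Gzme were at 9.15, 10.6 and 18.3 CPM, Acta2 at 1830 and Timp1 at 10315. Levels above 500 CPM were thus seen in scratch-positive cells of fine cluster 35, and neither in scratch-positive cells of fine cluster 36 nor in the 27 scratch-negative cells of fine cluster 35, in which Timp1 exceeded Acta2.

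**Figure D4:**
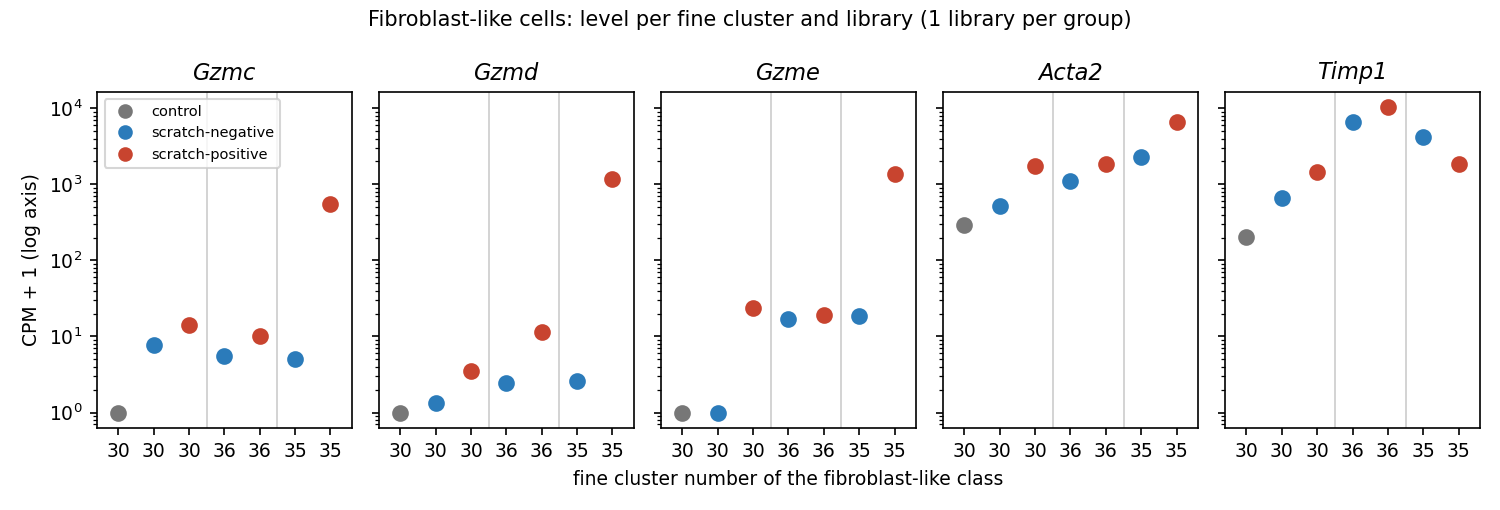
Points give CPM + 1 (log axis) of 3 granzymes, Acta2 and Timp1 in fine clusters 30, 36 and 35 of the fibroblast-like class; colours are libraries, 1 per group. Gzmc, Gzmd and Gzme exceeded 500 CPM only in scratch-positive cells of fine cluster 35, where Acta2 was 6636 CPM and Timp1 1853.

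Across the 307 scratch-positive cells of cluster 28 with at least 3000 UMIs, the summed Gzmc, Gzmd and Gzme count at that depth was ranked against 1853 other genes, as a description of cells of 1 library, with genes named after their values were seen. The highest Spearman coefficients were for Mcpt8 (0.59), a protease gene of the same locus, and Tnc (0.50), the matrix protein tenascin C. Actg2, Tpm1, Tagln and Acta2, contractile genes, lay between 0.32 and 0.36. The lowest were Col3a1 (-0.44), Rarres2 (-0.40) and Dcn (-0.37).

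Some other protease genes of the same stretch of chromosome 14 were also higher in scratch-positive than in scratch-negative fibroblast-like cells. From Cma1 to Gzmb (chr14:55941451-56262260, 320.81 kb) the table holds 15 protein-coding genes, chymases, cathepsin G and granzymes. In fibroblast-like cells Mcpt8 had 48 UMIs (2.84 CPM) in scratch-negative and 1700 (138 CPM) in scratch-positive. Mcpt1 had 0 and 339, at least 155-fold higher, Cma2 0 and 130, at least 59.6-fold higher, and Mcpt9 0 and 105. Gzmn had 104 and 262 (3.46-fold, 2.75 to 4.39). Others of the stretch were near 0, with Cma1 at 1 and 1 UMIs, Mcpt2 at 0 and 2, and Mcpt4 at 2 and 10. Their scratch-positive levels were 0.0814, 0.163 and 0.814 CPM. Ctsg, cathepsin G, a neutrophil protease gene in the middle of the stretch, was lower, with 94 and 7 UMIs (5.56 and 0.569 CPM). Neutrophil-like cells had 6.28 and 2.08 CPM of it and progenitor-like cells 2583 and 1651. The part of RNA from such cells in its fall was not tested. Mcpt1, Mcpt9 and Cma2 reached 10 UMIs only through scratch-positive. All 3 were at 0 in NK-like cells, which expressed Cma1 (92, 66 and 25 UMIs).

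Genes flanking the stretch differed far less than Gzmc, Gzmd and Gzme. On the Cma1 side, in scratch-negative and scratch-positive, Nfatc4 had 523 and 416 UMIs, Nynrin 264 and 225, and Sdr39u1 86 and 97. There Khnyn had 168 and 69, and Cbln3 8 and 1. On the Gzmb side Cenpj had 77 and 62, Parp4 230 and 111, and Mphosph8 608 and 510. Rnf17 had 20 and 15 there, and Atp12a 0 and 1. As CPM all of these lay between 0 and 36 in scratch-negative and between 0.0814 and 41.5 in scratch-positive.

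**Figure D5:**
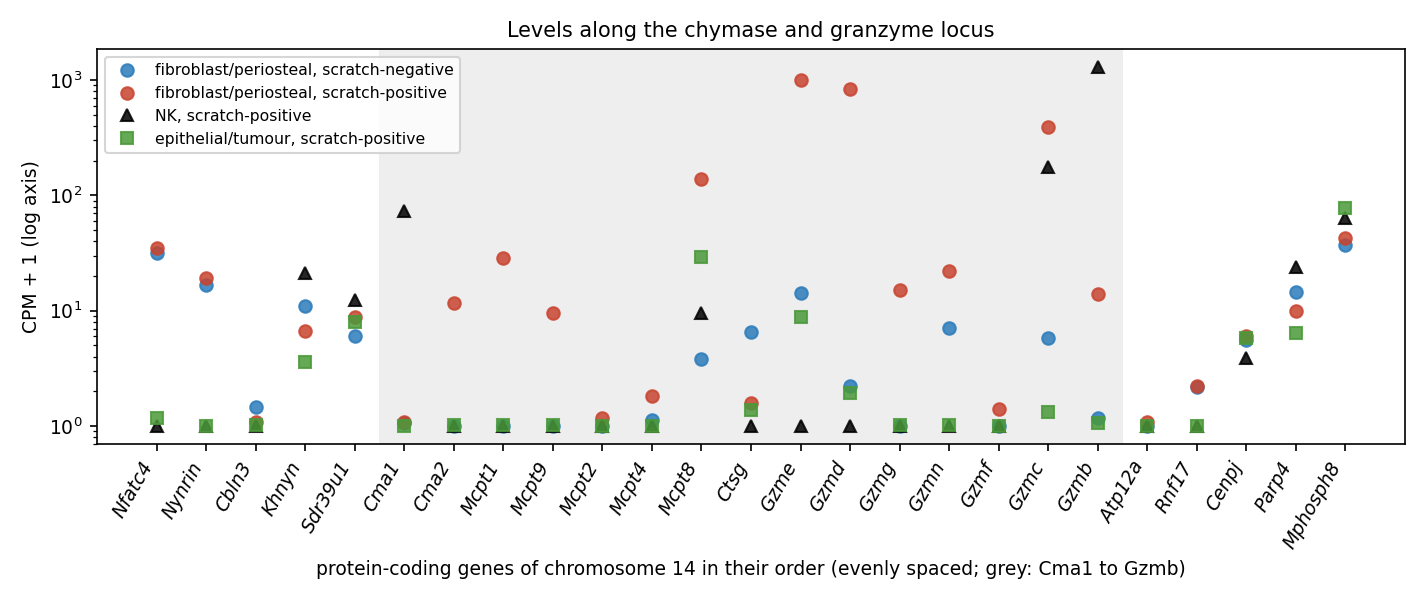
Points give CPM + 1 (log axis) of protein-coding genes in chromosome order, evenly spaced, with Cma1 to Gzmb in grey, for 4 class and library sums. In scratch-positive fibroblast-like cells Mcpt8, Gzme, Gzmd and Gzmc stood at 138, 999, 837 and 393 CPM, whereas in NK-like cells Gzmb stood at 1294 and Gzmc at 175 CPM, with Gzmd and Gzme at 0.

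Markers of mast cells, basophils and NK cells were sparse in the scratch-positive fibroblast-like cells. Of 8 mast cell markers, 5 were at 0 (Cpa3, Kit, Tpsb2, Tpsab1, Ms4a2), and of 8 basophil markers 6 were at 0, with Mcpt8 giving nearly all of the 1726 UMIs of that list. The 12 NK markers summed to 3.39 CPM in control, 12.4 in scratch-negative and 2.93 in scratch-positive, where 5 were at 0, Ncr1 and Klrb1c among them. The 12 T cell markers summed to 1.70, 8.70 and 18.0 CPM, with Cd8a, Cd8b1, Cd4 and Cd6 at 0 in scratch-positive. Fibroblast markers had UMIs for all 12 genes and summed to 68501 CPM in control, 57866 in scratch-negative and 37613 in scratch-positive. The 12 epithelial markers summed to 14.8 CPM in scratch-negative and 158 in scratch-positive, and the part of these and of T cell markers in the result was not tested.

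Of the partners of cytotoxic granules, Ctsc was higher with the granzymes in fibroblast-like cells and Nkg7 and Srgn were lower. Ctsc had 1178 UMIs in scratch-negative and 4495 in scratch-positive, 5.25-fold higher (4.92 to 5.60). Of 16 granule genes 2 were higher (Ctsc and Vamp7, the latter 1.57-fold) and 7 lower, beside 11.3% and 16.2% of all genes, so that the share higher was near that of all genes. Nkg7, a granule membrane protein of NK and T cells, was at 0.0529 of scratch-negative (5 and 130 UMIs). It is 1 of the 12 NK markers, which summed to 210 UMIs in scratch-negative and 36 in scratch-positive. The part of RNA from other cells in its fall was not tested. Srgn was lower at 0.512 (0.470 to 0.557). Serpinb9 was not called, at 0.718 (0.543 to 0.944), and 2 of 6 inhibitors were lower, Serpina3n at 0.270 and Serpinb6a at 0.661.

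Gzme UMIs were found at a low level in tumour-like cells of both tumour-bearing libraries. There were 109 UMIs (7.57 CPM) in 207 scratch-negative cells and 1913 (7.78 CPM) in 3759 scratch-positive cells, a ratio of 1.03 (0.846 to 1.26). Unthinned, at medians of 68973 and 62881 UMIs per cell, 12.6% and 24.3% of these cells had a Gzme UMI. Gzmd had 1 and 229 UMIs and Gzmc 0 and 81. Gzmd UMIs per Gzme UMI were 0.120 in scratch-positive tumour-like cells and 0.839 in fibroblast-like cells of that library. Mcpt8 UMIs per Gzme UMI were 3.66 and 0.138. The genes' proportions in tumour-like cells thus differed from those in fibroblast-like cells. In neutrophil-like cells of scratch-positive, with 14 Gzmd and 21 Gzme UMIs, the ratio of Gzmd to Gzme was 0.667, near that of fibroblast-like cells. As a background, Gzme was at 0.0544 CPM in neutrophil-like cells of scratch-negative and 1.37 CPM in those of scratch-positive.

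Most Gzma UMIs of macrophage-like cells, and of osteoclast-like cells of scratch-positive, were in few cells, most of which also carried NK receptors. Macrophage-like cells had 22, 645 and 1305 Gzma UMIs. Cells with 10 or more of them numbered 1, 11 and 34, and 1, 11 and 30 of these also had a UMI of Ncr1, Klrb1c, Klre1, Klra4 or Klra8. The cells with 10 or more, with or without a receptor UMI, held 77.3%, 92.6% and 95.6% of the class's Gzma UMIs. Among macrophage-like cells with 0 Gzma, 3.29%, 2.79% and 8.90% had such a UMI. In osteoclast-like cells of scratch-positive 8 cells had 10 or more, all with such a receptor UMI, and held 93.8% of the UMIs. Neutrophil-like cells had 55, 66 and 5 Gzma UMIs and no cell with 10 or more. In tumour-like cells the cells with 10 or more held 31.2% of Gzma UMIs in scratch-negative and 49.4% in scratch-positive, and there 92.3% and 90.1% of cells with 0 Gzma also had a receptor UMI, so the receptors mark no cells apart.

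Genes most like each member were sought over 30 class and library sums of at least 40 cells, among 10196 genes reaching 20 CPM, by Pearson's r of log2(CPM + 1). The sums share libraries and depth, and r is a description. For Gzma they were Klra9 (0.94), Ncr1, Klri2, Klre1 and Ccl5, and for Prf1 Klra9 (0.99), Clnk, Wdr95, Ncr1 and Klrg1. For Gzmb they were Gm14029 (0.94), Cysltr2, Fasl, Clnk and Tbx21, and for Gzmk, which had few UMIs, Clnk (0.99), Klrg1, Gm14029, Klrb1a and Ncr1. For Gzmd they were Mcpt1 (0.98), Sbspon, Mmp10, Gpha2 and Gzmn. These names depended on the measure. By Spearman's coefficient only Ncr1 and Ccl5 stayed among the 5 genes most like Gzma. Gm14029 stayed for Gzmb and Gzmk, Mmp10 for Gzmd, and none for Prf1. Among members r was 0.95 for Gzma with Prf1, 0.92 for Gzmd with Gzme and -0.15 for Gzmd with Prf1.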

How the data were processed

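For 3 single-cell 3′ libraries the authors deposited raw UMI counts for each gene and barcode. Per the file headers the matrices came from Cell Ranger 6.1.2, and mm10 is the build in the submitters' processing notes. The libraries held 7490, 8517 and 9504 barcodes and 100089008, 167623741 and 395654008 UMIs (control, scratch-negative, scratch-positive). All later steps were computed here. Barcodes with fewer than 500 genes or over 10% mitochondrial UMIs were removed, then those with the highest Scrublet scores at 0.8% per 1000 barcodes (449, 580 and 723), since Scrublet's own threshold marked 1, 0 and 581. Kept cells of different libraries shared 52 barcodes. The 2000 most variable genes without granzymes and Prf1, 30 principal components, 15 neighbours and Leiden resolution 1.0 (scanpy 1.11.5, Python 3.11.15) gave 29 clusters, named from marker lists with at least 3 detected markers; 1272 cells stayed unnamed.

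UMIs were summed per class and library of at least 40 cells. Intervals are exact Poisson for levels, Clopper-Pearson for shares (3 counts of the total for a share of 0) and conditional binomial for ratios, at 95%. Log2 ratios had 0.5 UMI added on both sides. The script was tested on simulated counts. Promoters came from RefSeq, transcripts and positions from GENCODE, both on GRCm38, and transcripts were aligned in Biopython 1.88. A planned comparison of proteins was replaced by one of transcripts. The named genes were all members, the 5 genes most correlated with each of 5 members, a few fixed partners, and from each gene list those with the largest and smallest ratios; further genes in the text were chosen after their values were seen. The members and lists were chosen with earlier results of these data known. Alternatives that moved the values of a comparison are given with their effect in the closing part. A Spearman ranking is given beside the Pearson one.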

Additional observations from a re-analysis of the deposited data

How the results depend on the processing

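No paired analysis was possible because each group had 1 library, and no replicate could be left out for the same reason. Each value that answers a comparison was taken under each of the other filters, doublet settings, scalings and rules. Of these pairs of value and setting, 303 stayed within the counting interval, or within 1.5 times for a count. The other 49 moved beyond it, and no ratio that was called at first reversed. Uncalled ratios were not checked for reversal. In NK-like cells, scratch-positive against scratch-negative, Gzma went from 0.830 to 1.03 and Prf1 from 0.845 to 1.06 with Scrublet's own threshold. The cause was not tested except where noted.

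In NK-like cells of scratch-negative against control, 2 members were higher without doublet removal, with Scrublet's own threshold and with a 2-fold rule. The ratios were 1.45 for Gzma, 5.53 for Gzmb and 1.34 for Prf1 without doublet removal, and 1.38, 5.28 and 1.28 with Scrublet's own threshold. Leaving out shared barcodes gave 1.81 for Gzma, and thinning to 3000 UMIs gave 1.65 for Gzma and 1.44 for Prf1. In scratch-positive against control, thinning gave 1.21 for Gzma and 1.02 for Prf1, and trimmed-mean scaling 1.34 for Gzma. In scratch-positive against scratch-negative, 0 members were lower without doublet removal, with Scrublet's own threshold and with a 2-fold rule. Those ratios were 0.986 for Gzma and 0.766 for Gzmb without doublet removal, 1.03 for Gzma, 0.803 for Gzmb and 1.06 for Prf1 with Scrublet's own threshold, 0.733 for Gzma and 0.506 for Gzmb after thinning, and 0.759 for Gzma under trimmed-mean scaling.

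In T-like cells the count of members higher was 2 with 200 or 1000 detected genes, 5% mitochondrial UMIs, either other doublet setting, granzymes among the variable genes, shared barcodes left out, thinning, or no minimum of 10 UMIs. The Gzmb ratio was 66.3 with 200 genes, 105 with 1000 genes, 55.1 with 5% mitochondrial UMIs, 61.7 without shared barcodes and 15.5 after thinning.

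In fibroblast-like cells, scratch-positive against scratch-negative, Gzme was 86.1-fold with 1000 genes, Gzmc 203-fold after thinning, and Gzmc, Gzmd and Gzme 63.0-, 379- and 65.0-fold without doublet removal. The count lower was 0 after thinning. Against control, the count higher in scratch-negative was 2 without doublet removal and 0 after thinning, and in scratch-positive 3 after thinning. With Scrublet's own threshold no control cell stayed in the class, so no ratio to control exists.

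Further alternatives were chosen after seeing the data. In fibroblast-like cluster 20 alone 0 members were higher in scratch-negative and 2 in scratch-positive against control, and 2 were higher and 0 lower between the tumour-bearing libraries, with Gzmc at 2.07-fold, whereas cluster 28 alone gave 104-fold. Without the interferon-gene subcluster, 2 members were higher in NK-like cells of scratch-negative against control, with Gzma at 1.5, Gzmb at 3.45 and Prf1 at 1.34. Between the tumour-bearing libraries 0 were then lower, with Gzma at 0.963, Gzmc at 23.5, Prf1 at 1.04 and Gzmb at 1.26, which reversed. Without the subcluster led by neutrophil genes Gzma was at 1.67 in scratch-negative and 1.36 in scratch-positive against control. Without the T-like cell richest in Gzmb its ratio was 13.1. Without the control T-like cell richest in Gzma 2 members were higher in scratch-negative against control. The scratch-positive library held 18 T-like cells, which limits what its T-like values can show.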
